A study of Mus musculus with 18 samples.

Results

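The Cyp3a genes encode CYP3A cytochromes P450, haem enzymes of the endoplasmic reticulum that oxidise drugs, steroids and bile acids. The 6 members followed here, Cyp3a11, Cyp3a13, Cyp3a16, Cyp3a25, Cyp3a41a and Cyp3a44, were taken by symbol from the 55536 Ensembl genes counted in each library, and all 6 were among the 14835 genes with enough counts to be tested. The annotation holds 5 further genes and pseudogenes of the family, of which 3 were tested. The libraries were made from whole liver of female C57BL/6 mice in 6 groups of 3. The dHep groups (AhRΔHep) lack the aryl hydrocarbon receptor, AHR, in hepatocytes, and received TCDD or peanut oil. The dHSC groups (AhRΔHSC) lack it in hepatic stellate cells, and received TCDD or peanut oil. The groups labelled WT are AhRfl/fl mice, with a floxed Ahr gene that is not deleted, and received TCDD or peanut oil. TCDD, a dioxin that activates AHR, was given by gavage at 100 µg/kg. Doses of TCDD or peanut oil came at intervals of 4 days, and livers were taken at day 92. Peanut oil alone is called vehicle. The Cre drivers, the age of the mice and the deleted part of Ahr are not given in the sources used here. The series title asks whether TCDD activates liver myofibroblasts through AHR of hepatocytes; for Cyp3a the design compares TCDD with vehicle in each genotype, and these responses between genotypes.

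In the mouse, Cyp3a11 is the main adult hepatic enzyme of the family, and its transcription is raised by the pregnane X receptor PXR, encoded by Nr1i2, and the constitutive androstane receptor CAR, encoded by Nr1i3. Cyp3a13 is also known from the intestine, and Cyp3a25 from adult liver. Cyp3a16 is known from fetal and newborn liver, and Cyp3a16, Cyp3a41a and Cyp3a44 are expressed more in female than in male adult liver. That sex difference depends on the pulses of growth hormone in plasma, which act through STAT5 and, in female liver, through the repressor and activator CUX2.

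The genes lie on chromosome 5 (GRCm38). Cyp3a13 (ENSMUSG00000029727) stands alone at chr5:137892932-137921619. The other members lie in 1 cluster, all on the minus strand: Cyp3a16 (ENSMUSG00000038656) at chr5:145436309-145469723, Cyp3a41a (ENSMUSG00000075551) at chr5:145694049-145720136, Cyp3a44 (ENSMUSG00000054417) at chr5:145773983-145805874, Cyp3a11 (ENSMUSG00000056035) at chr5:145854426-145879964 and Cyp3a25 (ENSMUSG00000029630) at chr5:145977194-146009618. Cyp3a41b, the near-identical copy of Cyp3a41a, lies between Cyp3a16 and Cyp3a41a at chr5:145558664-145584730. No exon of a member overlaps another annotated gene. The promoters of the 3 members that were called lower with TCDD are shown with that of Cyp3a11, which was not. Each runs from 250 bases before to 50 bases after the RefSeq start (GRCm38.p6, minus strand, written 5′ to 3′): Cyp3a16 at chr5:145469674-145469973, Cyp3a41a at chr5:145720087-145720386, Cyp3a44 at chr5:145805825-145806124 and Cyp3a11 at chr5:145879805-145880104. Capitals mark the motif matches described after the sequences.
Cyp3a16: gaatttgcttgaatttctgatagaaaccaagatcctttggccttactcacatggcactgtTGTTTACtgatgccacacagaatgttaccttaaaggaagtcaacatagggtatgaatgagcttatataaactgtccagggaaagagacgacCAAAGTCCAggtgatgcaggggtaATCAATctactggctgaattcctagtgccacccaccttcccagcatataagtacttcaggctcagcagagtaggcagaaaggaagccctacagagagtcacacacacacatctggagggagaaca
Cyp3a41a: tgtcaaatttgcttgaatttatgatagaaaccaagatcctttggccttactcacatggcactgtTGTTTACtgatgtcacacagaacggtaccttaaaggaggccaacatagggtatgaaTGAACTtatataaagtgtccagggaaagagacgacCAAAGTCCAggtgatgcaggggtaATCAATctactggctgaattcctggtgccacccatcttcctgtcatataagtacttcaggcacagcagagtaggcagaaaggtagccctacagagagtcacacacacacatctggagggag
Cyp3a44: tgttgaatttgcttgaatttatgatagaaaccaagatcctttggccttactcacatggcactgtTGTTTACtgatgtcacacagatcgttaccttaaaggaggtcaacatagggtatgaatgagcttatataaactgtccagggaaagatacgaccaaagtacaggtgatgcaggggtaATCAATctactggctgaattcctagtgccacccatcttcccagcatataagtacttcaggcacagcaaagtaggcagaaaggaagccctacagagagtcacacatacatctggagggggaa
Cyp3a11: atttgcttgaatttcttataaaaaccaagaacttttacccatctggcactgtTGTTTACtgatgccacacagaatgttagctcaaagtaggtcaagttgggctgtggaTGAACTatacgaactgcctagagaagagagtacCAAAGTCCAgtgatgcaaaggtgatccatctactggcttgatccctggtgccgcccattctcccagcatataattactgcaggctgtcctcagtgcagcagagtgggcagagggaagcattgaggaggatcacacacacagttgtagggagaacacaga

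The promoters of Cyp3a16, Cyp3a41a and Cyp3a44 were alike at 92.1% to 93.4% of aligned positions, whereas that of Cyp3a11 was identical to them at 70.4% to 74.8%. All 4 hold TGTTTAC, a form of the site of the FOXA pioneer factors, with its first base 190 bases before the start in Cyp3a16, 186 in Cyp3a41a and in Cyp3a44, and 198 in Cyp3a11. CAAAGTCCA, a form of the site of the hepatocyte factor HNF4A, is found in Cyp3a16, Cyp3a41a and Cyp3a11, at 99, 95 and 109 bases, and not in Cyp3a44. ATCAAT, a site form of HNF6 (gene Onecut1) and CUX2, is found in Cyp3a16, Cyp3a41a and Cyp3a44, at 75, 71 and 71 bases, and not in Cyp3a11. AGTTCA, a half-site of nuclear receptors such as PXR, is found as its reverse complement in Cyp3a41a and Cyp3a11, at 130 and 142 bases. GCGTG, the core of the AHR site, and TTCNNNGAA, the site form of STAT5, are in none of the 9 protein-coding Cyp3a promoters. Both strands were searched, and no match overlaps another. Over the 27025 RefSeq promoters of that length, TGTTTAC was found in 3.55%, CAAAGTCCA in 0.477%, ATCAAT in 7.76%, AGTTCA in 14%, GCGTG in 32.5% and TTCNNNGAA in 8.47%. The motifs were chosen with these sequences in view, and the 4 promoters share an origin, so the matches are a description and not a test.

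**Figure D1:**
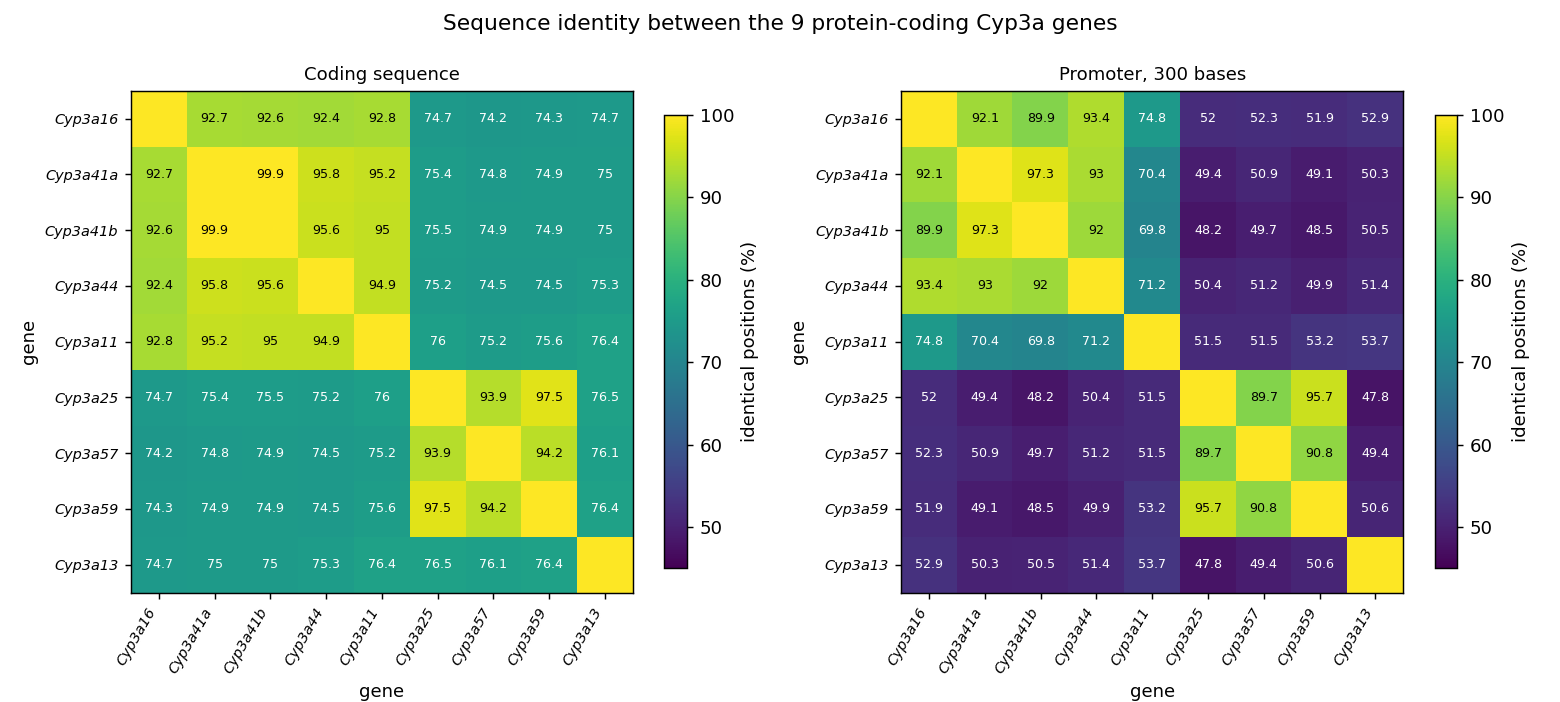
Identity of aligned positions, in percent, between the 9 protein-coding Cyp3a genes, for coding sequences (left) and for the promoters of 300 bases (right); both axes list the genes. Cyp3a16, Cyp3a41a, Cyp3a41b, Cyp3a44 and Cyp3a11 form 1 block and Cyp3a25, Cyp3a57 and Cyp3a59 another in coding sequence, and in the promoters Cyp3a11 stands between the first block and the rest.

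Coding sequences were more alike than promoters in all pairs but Cyp3a16 and Cyp3a44, which matched at 92.4% of positions in coding sequence and 93.4% in the promoter. Cyp3a41a matched Cyp3a41b at 99.9%, Cyp3a44 at 95.8%, Cyp3a11 at 95.2% and Cyp3a16 at 92.7% of positions, and Cyp3a13 matched the other members at 74.7% to 76.5%. Of the stretches of 100 bases in the Cyp3a41a transcript, 90.8% also occur in another gene's transcript, and in Cyp3a41b 88.2% do. For Cyp3a25 the share was 6.05%, for Cyp3a44 5.37%, for Cyp3a11 0.312% and for Cyp3a16 0.123%, and Cyp3a13 shared none. Levels of Cyp3a41a and Cyp3a41b taken singly are therefore uncertain, and the level of their summed counts is given after them.

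Total counts ran from 12706490 to 27240877 per library, so that 1 CPM (the unit of level used here, a count scaled to the size of its library after TMM normalisation) stood for 13.3 to 26.7 counts. Libraries are named by group and mouse number, each from 1 mouse, and all pairs of replicates differed by more than sampling noise. Of the 18 libraries, 5 stood apart from the others: dHep vehicle 9 and 15, dHep TCDD 16, dHSC vehicle 17 and dHSC TCDD 18. Between 2.204% and 4.247% of their counts fell outside protein-coding genes, against 1.126% to 1.764% in the other 13. They lay at 1 end of the first principal component, at 62.1 to 126. WT TCDD 8 came nearest to them on both measures, at 36.8 on that component and 1.764% outside protein-coding genes. WT vehicle 1 held 595.8 CPM of summed skeletal muscle markers, whereas the other WT vehicle libraries held at most 0.05738 CPM. Ahr, the deleted gene, averaged 61.53 CPM in dHep TCDD livers and 37.99 CPM in dHep vehicle livers, 47.38 CPM in dHSC TCDD and 39.40 CPM in dHSC vehicle livers, and 51.51 CPM in WT TCDD and 51.41 CPM in WT vehicle livers. Ahr counts over the whole gene in whole liver thus did not mark the genotypes. Cyp1a1, the classical AHR target, marked the dHep livers: it averaged 307.0 CPM in dHep TCDD livers against 63.84 CPM in dHep vehicle livers, 4500 CPM in dHSC TCDD livers against 11.64 CPM in dHSC vehicle livers, and 6426 CPM in WT TCDD livers against 15.39 CPM in WT vehicle livers. It did not set dHSC apart from WT, since their TCDD livers overlapped, at 2446 to 5572 CPM in dHSC and 5086 to 8324 CPM in WT mice.

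In WT livers, TCDD lowered the 3 female-biased members and left no detectable change in the other 3. Cyp3a16, Cyp3a41a and Cyp3a44 were called lower in edgeR's quasi-likelihood test, where called means a Benjamini-Hochberg adjusted p under 0.05 over all genes tested. That is 3 of 6 members, against 1.95% of all genes called lower and 5.38% called in either direction. In dHSC livers 1 of 6 members, Cyp3a16, was called lower, against 0.843% of all genes called lower and 2.55% called in either direction. In dHep livers none of the 6 was called at an adjusted p under 0.05, against 0.0674% of all genes, and 1 of them, Cyp3a44, had an unadjusted p under 0.05, as had 6.7% of all genes. The median log2 change over the 6 members was 0.09 in dHep livers, -1.90 in dHSC livers and -2.62 in WT livers, with medians of -0.008, -0.004 and -0.015 over all genes tested. The members are too few for the median to say more than these values, and the 3 comparisons use separate mice.

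**Figure D2:**
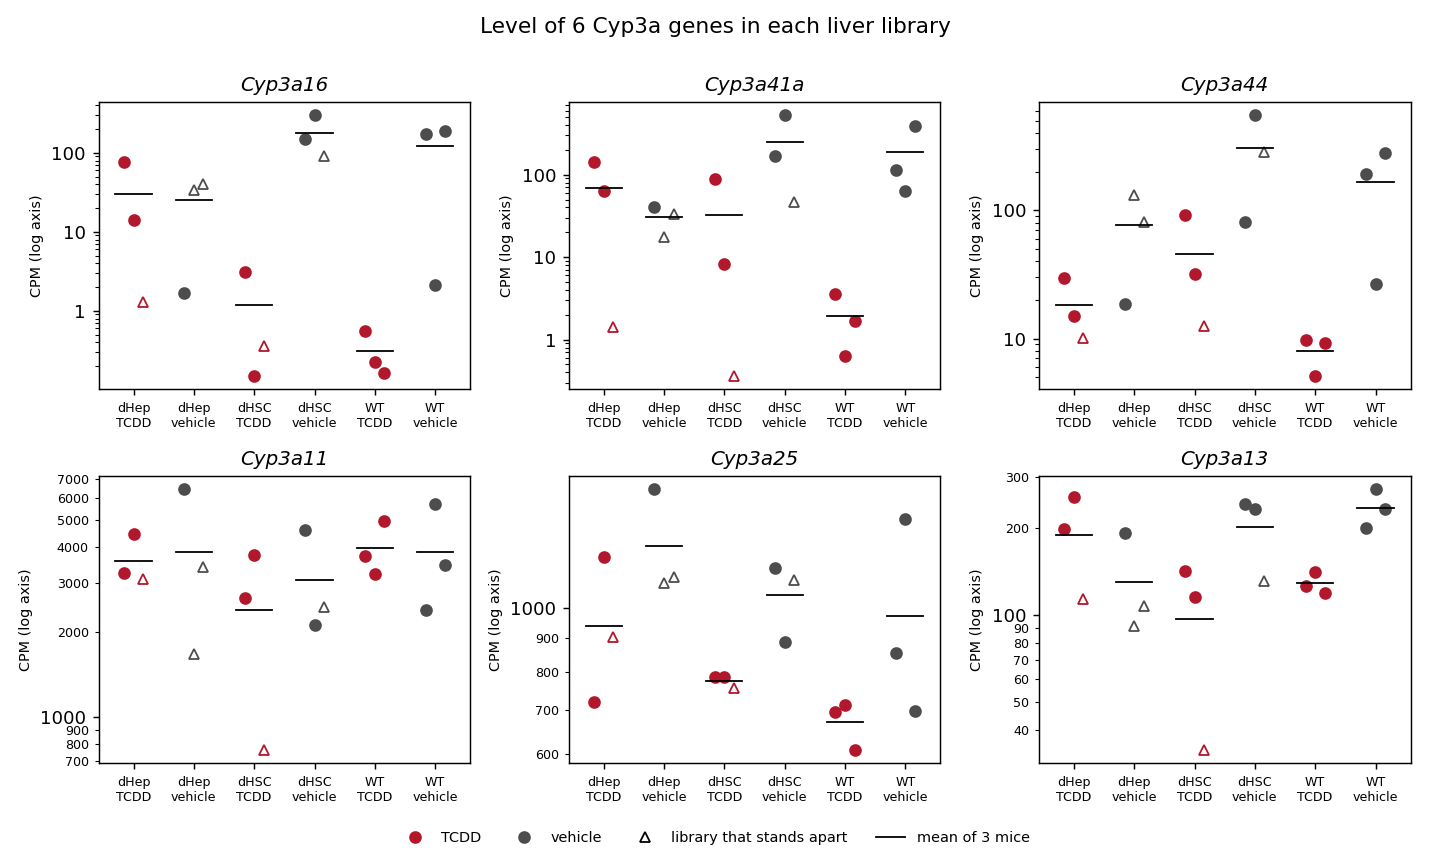
Level of each member in CPM, on log axes that differ between panels, in the 18 livers by group; each point is 1 mouse, lines are means of 3 mice, and open triangles are the 5 libraries that stand apart. In the 3 WT TCDD livers Cyp3a16, Cyp3a41a and Cyp3a44 stand at 0.1653 to 9.701 CPM, while Cyp3a11 lies at 761.4 to 6440 CPM across all groups.

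Cyp3a16 spanned the widest range of the members. In dHep livers it stood at 75.83, 14.24 and 1.292 CPM with TCDD (mice 4, 10 and 16), against 1.684, 33.61 and 40.13 CPM with vehicle (mice 3, 9 and 15). In dHSC livers it stood at 3.097, 0.1482 and 0.3578 CPM with TCDD (mice 6, 12 and 18), against 150.0, 300.2 and 91.52 CPM with vehicle (mice 5, 11 and 17). In WT livers it stood at 0.5491, 0.2277 and 0.1653 CPM with TCDD (mice 2, 8 and 14), against 174.0, 2.129 and 187.5 CPM with vehicle (mice 1, 7 and 13). The TCDD livers lay below every vehicle liver in dHSC and in WT mice, and the groups overlapped in dHep mice. The 3 WT TCDD libraries held only 12, 4 and 4 reads of the gene, and WT vehicle mouse 7 held 38. The WT TCDD mean of 0.314 ± 0.206 CPM was 386-fold lower than the WT vehicle mean of 121.2 ± 103.3 CPM (SD, n = 3 each), and the edgeR estimate was a log2 change of -8.56 ± 1.93 (SE, adjusted p = 0.0143, quasi-likelihood test). In dHSC livers the log2 change was -7.27 ± 1.79 (edgeR, adjusted p = 0.04063), and in dHep livers it was 0.28 ± 1.33 (edgeR, adjusted p = 0.9782) with a 95% interval of -2.33 to 2.90. In a whole-liver library fewer cells of a type and less RNA per cell cannot be told apart. Leaving out any 1 WT TCDD mouse ended the WT call, with log2 changes of -9.25 without mouse 2, -8.40 without mouse 8 and -8.24 without mouse 14 and edgeR adjusted p of 0.06196 to 0.08127. The dHSC call ended without any 1 of its 6 libraries (log2 changes of -9.53 to -6.70) and without the 5 libraries that stand apart, at a log2 change of -7.21 and an edgeR adjusted p of 0.1031.

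Cyp3a41a followed a like course in WT livers, while single mice decided its level in the other genotypes. In dHep livers it stood at 144.3, 63.06 and 1.428 CPM with TCDD, against 40.69, 17.76 and 33.42 CPM with vehicle, in the same order of mice as for Cyp3a16. In dHSC livers it stood at 89.00, 8.201 and 0.3578 CPM with TCDD, against 170.6, 527.3 and 46.18 CPM with vehicle. In WT livers it stood at 3.523, 0.6261 and 1.694 CPM with TCDD, against 113.7, 63.58 and 390.3 CPM with vehicle. The WT groups did not overlap, whereas TCDD and vehicle livers overlapped in dHep and in dHSC mice. The WT TCDD mean of 1.948 ± 1.465 CPM was 97.1-fold lower than the WT vehicle mean of 189.2 ± 176.0 CPM (SD, n = 3 each), with a log2 change of -6.59 ± 1.75 (edgeR, adjusted p = 0.03665). The log2 change was -2.93 ± 1.46 in dHSC livers (edgeR, adjusted p = 0.4465) and 1.18 ± 1.38 in dHep livers (edgeR, adjusted p = 0.9145). The dHSC value came to -5.84 without TCDD mouse 6 and -1.74 without vehicle mouse 11, and neither was called. In WT livers the call ended without each of TCDD mice 2, 8 and 14 and vehicle mice 7 and 13, at log2 changes of -7.32, -6.18, -6.50, -7.01 and -5.50.

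Cyp3a41b, the other copy, also fell with TCDD in WT livers, with a smaller estimated change than Cyp3a41a. It stood at 8.465, 0.9676 and 1.198 CPM in WT TCDD livers, against 62.57, 54.68 and 171.7 CPM in WT vehicle livers. The log2 change was -4.76 ± 1.29 (edgeR, adjusted p = 0.04042) in WT livers, -3.10 ± 1.18 (edgeR, adjusted p = 0.2501) in dHSC livers and -1.18 ± 1.11 (edgeR, adjusted p = 0.886) in dHep livers. How reads were divided between the copies differed between the 5 libraries that stand apart and the rest. Cyp3a41a took 5.952% to 19.52% of the counts of both copies, with a median of 16.65%, in the 5 libraries that stand apart, and 29.39% to 71.24%, with a median of 58.57%, in the other 13. The ranges did not overlap, and the 5 libraries come from 4 groups, 2 with TCDD and 2 with vehicle. All 5 are dHep or dHSC livers and none is a WT liver. Comparisons of dHep or dHSC with WT livers therefore mix this difference between libraries with genotype in part. The dHep and dHSC libraries that do not stand apart gave Cyp3a41a shares of 51.64% to 71.24%. The smallest sums of both copies were 28 counts in WT TCDD mouse 8 and 70 counts in WT TCDD mouse 14, so those shares are imprecise. The sum of both copies does not depend on this division. It stood at 211, 122 and 8.1 CPM in dHep TCDD livers, against 65.4, 125 and 201 CPM in dHep vehicle livers. It stood at 158, 11.5 and 6.02 CPM in dHSC TCDD livers, against 274, 902 and 237 CPM in dHSC vehicle livers, and at 12, 1.59 and 2.89 CPM in WT TCDD livers, against 177, 118 and 562 CPM in WT vehicle livers. TCDD livers lay below all vehicle livers in dHSC and WT mice and overlapped with them in dHep mice. The log2 change of the sum, given with no test, was -0.20 in dHep, -3.01 in dHSC and -5.70 in WT livers.

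**Figure D3:**
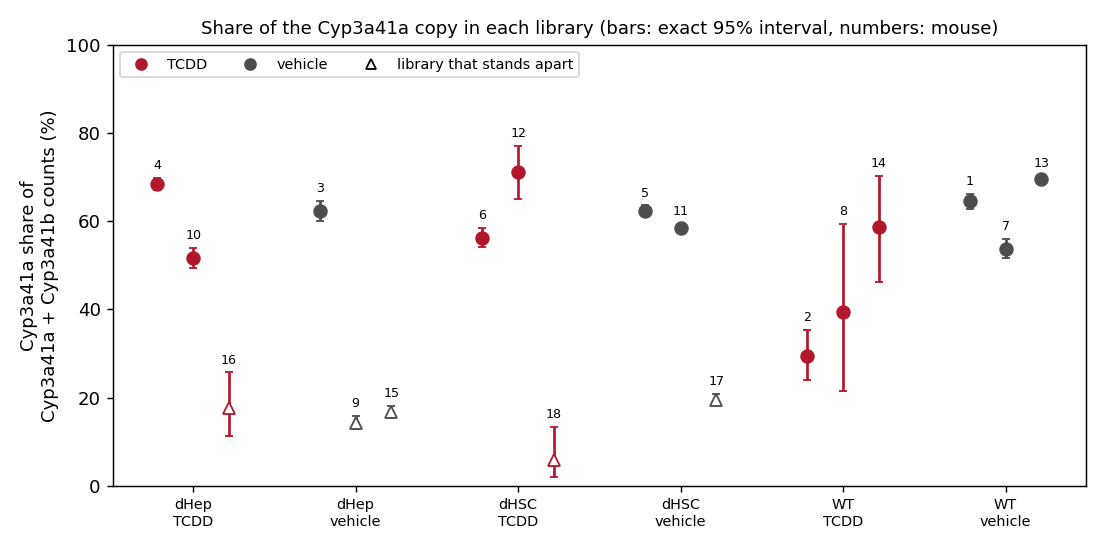
Share of Cyp3a41a in the counts of Cyp3a41a and Cyp3a41b together, in percent, in each library by group; bars are exact 95% binomial intervals, which cover counting error only, numbers are mice, and open triangles are the 5 libraries that stand apart. Those 5 lie between 5.952% and 19.52%, below all other libraries, with TCDD and with vehicle.

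Cyp3a44 showed the smallest fall of the 3 members in WT livers and the most precise one. In dHep livers it stood at 29.63, 14.87 and 10.13 CPM with TCDD, against 18.68, 130.5 and 81.25 CPM with vehicle. In dHSC livers it stood at 92.39, 31.92 and 12.59 CPM with TCDD, against 81.63, 551.9 and 286.7 CPM with vehicle. In WT livers it stood at 9.701, 5.066 and 9.296 CPM with TCDD, against 192.9, 26.61 and 279.8 CPM with vehicle. Here too the WT groups were apart, whereas 1 vehicle mouse of dHep (mouse 3) and 1 of dHSC (mouse 5) fell within the range of the TCDD mice. The WT TCDD mean of 8.021 ± 2.567 CPM was 20.8-fold lower than the WT vehicle mean of 166.4 ± 128.6 CPM (SD, n = 3 each), with a log2 change of -4.37 ± 0.996 (edgeR, adjusted p = 0.01538). The log2 change was -2.75 ± 0.92 in dHSC livers (edgeR, adjusted p = 0.1604) and -2.07 ± 0.90 in dHep livers (edgeR, adjusted p = 0.6978). Without the 5 libraries that stand apart the dHep value was 0.26, and the direction turned. The WT call ended without TCDD mouse 2, 8 or 14 or vehicle mouse 13, at log2 changes of -4.54, -4.13, -4.50 and -3.78.

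Counts of Cyp3a16, Cyp3a41a, Cyp3a41b and Cyp3a44 were also summed to 1 value per library, so that reads shared among these genes could not move between them. The sum stood at 316, 151 and 19.5 CPM in dHep TCDD livers, against 85.8, 289 and 322 CPM in dHep vehicle livers. It stood at 254, 43.6 and 19.0 CPM in dHSC TCDD livers, against 506, 1760 and 615 CPM in dHSC vehicle livers. It stood at 22.3, 6.89 and 12.4 CPM in WT TCDD livers, against 546, 147 and 1030 CPM in WT vehicle livers. TCDD livers were below all vehicle livers in WT and in dHSC mice, and overlapped with them in dHep mice. The log2 change of the sum was -0.52 in dHep, -3.19 in dHSC and -5.37 in WT livers. In dHep livers the sum gave the opposite sign to Cyp3a16 and Cyp3a41a taken singly, whose values were 0.28 and 1.18.

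**Figure D4:**
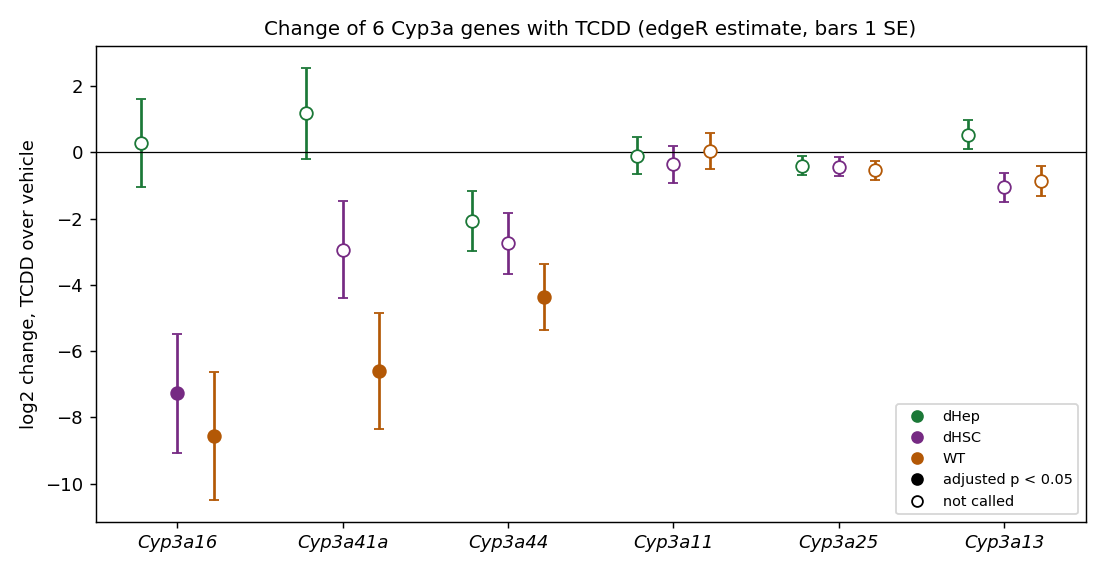
Log2 change, TCDD over vehicle, of each member in dHep, dHSC and WT livers (edgeR estimates from 1 fit of all 18 libraries, bars 1 SE); filled points have an adjusted p under 0.05. The 3 WT points of Cyp3a16, Cyp3a41a and Cyp3a44, at -8.56, -6.59 and -4.37, and the dHSC point of Cyp3a16, at -7.27, are filled.

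Whether the responses differ between genotypes was tested as the difference of the 2 log2 changes in the same fit. For dHep minus WT, Cyp3a16 gave 8.84 ± 2.27 (edgeR, adjusted p = 0.1031), Cyp3a41a gave 7.77 ± 2.17 (edgeR, adjusted p = 0.1561) and Cyp3a44 gave 2.30 ± 1.24 (edgeR, adjusted p = 0.6841). None of the 6 members was called, against 0.856% of all genes, while 3 members, Cyp3a13, Cyp3a16 and Cyp3a41a, had an unadjusted p under 0.05, against 8.43% of all genes. The loss of the WT response in dHep livers is thus not established for any member by this test, although the approximate 95% interval for Cyp3a16, not adjusted for the genes tested, ran from 4.39 to 13.30. DESeq2 called Cyp3a16 and Cyp3a41a in this comparison, at adjusted p of 0.001389 and 0.007119, and edgeR without the filter on low counts called Cyp3a16 at 0.03283; over the alternatives the adjusted p ran up to 0.3238 for Cyp3a16 and 0.4423 for Cyp3a41a. For dHep minus dHSC, Cyp3a16 gave 7.56 ± 2.15 (edgeR, adjusted p = 0.2092), none of the members was called against 0.431% of all genes, and 2 members, Cyp3a13 and Cyp3a16, had an unadjusted p under 0.05, against 9.24% of all genes. DESeq2 called Cyp3a16 there, at an adjusted p of 0.01694, with values of up to 0.5436 among the alternatives. For dHSC minus WT, no member and no gene of the 14835 (0%) was called by edgeR, no member was called by DESeq2, and no member had an unadjusted p under 0.05, against 233 genes (1.57%). Each pair of differences shares 1 genotype's mice, so they are not separate evidence. Without the 5 libraries that stand apart, which leaves 2 dHep TCDD mice and 1 dHep vehicle mouse that is assumed to vary like the other groups, the dHep TCDD change was 4.74 for Cyp3a16 and 1.35 for Cyp3a41a. The dHep minus WT difference was then 13.30 for Cyp3a16, 7.93 for Cyp3a41a and 4.63 for Cyp3a44, and none was called (edgeR, adjusted p of 0.1957, 0.2444 and 0.5317).

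Cyp3a11 was abundant in every group and did not change detectably with TCDD in any genotype. In dHep livers it stood at 3234, 4463 and 3081 CPM with TCDD, against 6440, 1672 and 3416 CPM with vehicle. In dHSC livers it stood at 2651, 3769 and 761.4 CPM with TCDD, against 4630, 2129 and 2466 CPM with vehicle. In WT livers it stood at 3722, 3225 and 4968 CPM with TCDD, against 2390, 5702 and 3456 CPM with vehicle. TCDD and vehicle livers overlapped in all 3 genotypes, and vehicle mice of 1 genotype differed by up to 3.85-fold. The log2 change was -0.10 ± 0.55 in dHep, -0.36 ± 0.55 in dHSC and 0.04 ± 0.55 in WT livers, with edgeR adjusted p of 0.9824, 0.9489 and 0.989. The 95% interval in WT livers ran from -1.04 to 1.13, so a smaller change in either direction was not detectable here.

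Cyp3a25 varied least between mice. In dHep livers it stood at 719.6, 1199 and 905.1 CPM with TCDD, against 1522, 1094 and 1118 CPM with vehicle. In dHSC livers it stood at 786.1, 784.6 and 756.4 CPM with TCDD, against 1155, 888.5 and 1107 CPM with vehicle. In WT livers it stood at 694.0, 711.7 and 606.6 CPM with TCDD, against 856.0, 1371 and 695.9 CPM with vehicle. TCDD livers lay below all vehicle livers in dHSC mice, and the groups overlapped in the other 2 genotypes. The log2 change was -0.40 ± 0.28 in dHep, -0.44 ± 0.28 in dHSC and -0.54 ± 0.29 in WT livers, and none was called (edgeR, adjusted p of 0.8274, 0.6441 and 0.3796). Its close relative Cyp3a59, at 97.5% identity in coding sequence, was called lower in WT livers, at a log2 change of -1.70 ± 0.33 (edgeR, adjusted p = 0.005323), and in dHSC livers, at -1.54 ± 0.32 (edgeR, adjusted p = 0.01656). In dHep livers Cyp3a59 gave -0.85 ± 0.32 (edgeR, adjusted p = 0.6203). Cyp3a59 stood at 88.29, 113.5 and 101.1 CPM in dHep TCDD livers against 198.8, 220.0 and 127.6 CPM in dHep vehicle livers, and at 30.57, 18.95 and 31.85 CPM in WT TCDD livers against 68.21, 133.2 and 63.63 CPM in WT vehicle livers. TCDD livers were below vehicle livers in both genotypes.

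Cyp3a13, the member outside the cluster, stood at 198.0, 255.6 and 114.0 CPM in dHep TCDD livers, against 192.5, 91.34 and 107.3 CPM in dHep vehicle livers. It stood at 142.1, 115.2 and 33.99 CPM in dHSC TCDD livers, against 242.3, 233.5 and 130.9 CPM in dHSC vehicle livers. It stood at 126.4, 140.9 and 119.2 CPM in WT TCDD livers, against 199.7, 272.4 and 233.4 CPM in WT vehicle livers. The WT groups did not overlap and lay close within themselves, while those of dHep and dHSC overlapped. The log2 change was 0.54 ± 0.44 in dHep, -1.06 ± 0.45 in dHSC and -0.87 ± 0.44 in WT livers, and none was called (edgeR, adjusted p of 0.8624, 0.3228 and 0.3585). With Cyp3a16, Cyp3a41a and Cyp3a44 it made 4 members with WT TCDD livers below all WT vehicle livers, against 11.3% of all genes. In dHSC mice 2 members, Cyp3a16 and Cyp3a25, were apart in this way, against 7.71% of all genes, and in dHep mice none was, against 5.03%.

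Per transcript length, Cyp3a11 held the largest share of the family's transcripts in every liver except dHSC TCDD 18. The length was that of 1 transcript per gene. For Cyp3a11 it was 2344 bases, whereas all its exons cover 5093 bases, so its share may be overstated. Shares of Cyp3a41a and Cyp3a41b may be understated if reads that match both copies were lost. Its share of the summed CPM per kilobase of the 9 protein-coding genes ran from 38.33% (dHSC vehicle 11) to 85.28% (WT TCDD 14), and that of Cyp3a25 from 12.2% to 50.75%, the last in dHSC TCDD 18, where Cyp3a11 held 43.59%. Cyp3a16, Cyp3a41a, Cyp3a41b and Cyp3a44 together made up 8.008%, 2.756% and 0.5268% in dHep TCDD livers, against 1.136%, 9.448% and 7.103% in dHep vehicle livers. They made up 7.317%, 1.055% and 1.28% in dHSC TCDD livers, against 8.787%, 37.65% and 15.59% in dHSC vehicle livers. They made up 0.5526%, 0.1945% and 0.2509% in WT TCDD livers, against 15.51%, 2.154% and 21.31% in WT vehicle livers. The WT and the dHSC groups did not overlap in this share, and the dHep groups did. The summed level of the family per kilobase was 2004, 1792 and 2485 in WT TCDD livers, within the range of 1834 to 3350 in WT vehicle livers except for mouse 8.

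**Figure D5:**
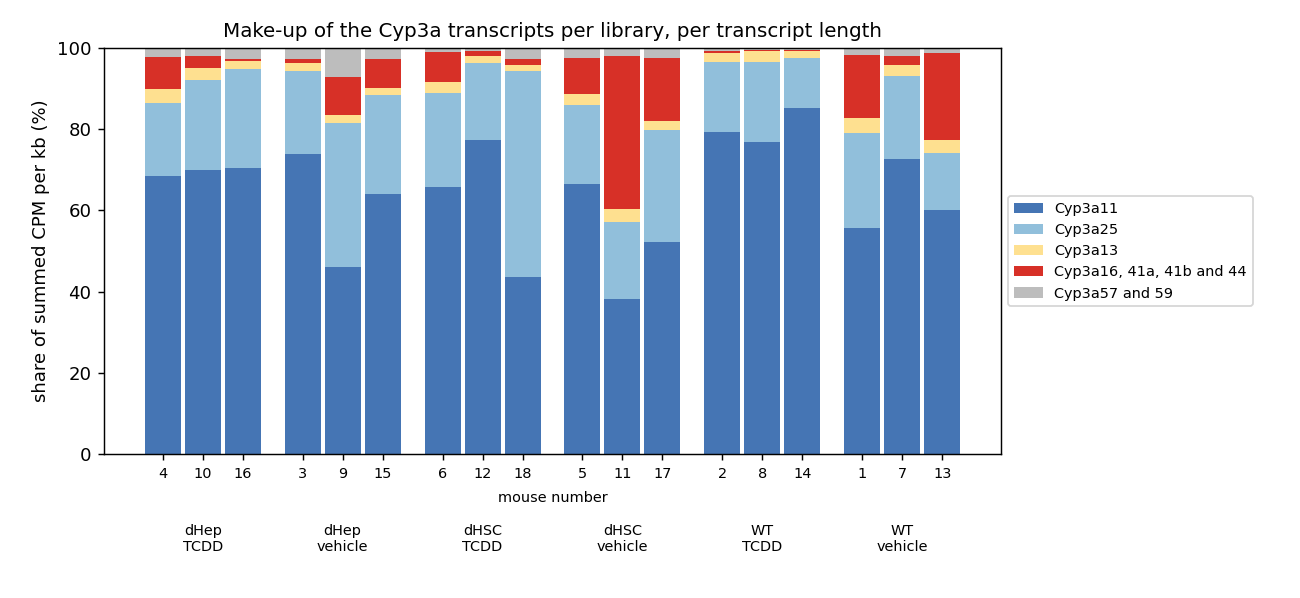
Make-up of the Cyp3a transcripts in each liver, as the share in percent of the summed CPM per kilobase of transcript, by group and mouse number. The length is that of 1 transcript per gene, and colours are genes or sets of genes. The red part, Cyp3a16, Cyp3a41a, Cyp3a41b and Cyp3a44 together, is 0.1945% to 0.5526% in the WT TCDD livers and 2.154% to 21.31% in the WT vehicle livers.

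Among vehicle livers, neither deletion changed a member by the test. For dHep vehicle against WT vehicle, no member and none of the 14835 genes (0%) was called by edgeR, no member was called by DESeq2, no member had an unadjusted p under 0.05, and 1025 genes (6.91%) did. Cyp3a41a at 17.76 to 40.69 CPM and Cyp3a13 at 91.34 to 192.5 CPM in dHep vehicle livers lay below all WT vehicle livers, at 63.58 to 390.3 CPM and 199.7 to 272.4 CPM. That is 2 of 6 members, against 3.23% of all genes. Summed with Cyp3a41b, Cyp3a41a overlapped, at 65.4 to 201 CPM in dHep vehicle and 118 to 562 CPM in WT vehicle livers. Of the 3 dHep vehicle libraries 2 stand apart from the rest, and with only the third, mouse 3, the log2 difference of Cyp3a16 was -6.17 and that of Cyp3a44 -3.16, in place of -2.27 and -1.12. For dHSC vehicle against WT vehicle, no member and no gene (0%) was called by edgeR, no member was called by DESeq2, and no member had an unadjusted p under 0.05, against 220 genes (1.48%). Over the 6 groups, Cyp3a16, Cyp3a41a and Cyp3a44 were highest on average in dHSC vehicle livers and next in WT vehicle livers, and lowest in WT TCDD livers. In the order of group means, neighbours overlapped for all 6 members except at the low end. WT TCDD livers did not overlap with dHSC TCDD livers for Cyp3a25, with dHep vehicle livers for Cyp3a41a or with dHep TCDD livers for Cyp3a44.

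None of the 16 listed receptors and cofactors of Cyp3a transcription was called with TCDD in any genotype, and their median log2 change was -0.02 in dHep, -0.24 in dHSC and -0.33 in WT livers. With 0.0674%, 2.55% and 5.38% of all genes called in dHep, dHSC and WT livers, no call among 16 genes is near the background share. PXR (Nr1i2) averaged 83.10 CPM in WT TCDD and 93.10 CPM in WT vehicle livers, a log2 change of -0.17 ± 0.35 (edgeR, adjusted p = 0.9287). CAR (Nr1i3) gave -0.15 ± 0.40 and Hnf4a -0.14 ± 0.29. Onecut1, which encodes HNF6, stood lower in every WT TCDD liver than in any WT vehicle liver, as did 11.3% of all genes. Its log2 change was -2.10 ± 0.73, not called (edgeR, adjusted p = 0.1198), with only 59 reads over the 3 WT TCDD libraries. The dHSC groups of Onecut1 were also apart, as in 7.71% of all genes, at -1.32 ± 0.74 and not called, and the dHep groups overlapped. In WT livers Foxa2 gave -0.89 ± 0.32, not called either (edgeR, adjusted p = 0.1391). Of the 7 genes of electron transfer to and haem supply of P450 enzymes, 1 was called higher in WT livers: Hmox1, which breaks down haem, at 1.502 ± 0.388 (edgeR, adjusted p = 0.03145). Por, the reductase that passes electrons to CYP3A enzymes, gave 0.36 ± 0.53, and Alas1, the first enzyme of haem synthesis, 0.51 ± 0.97. In dHep and dHSC livers none of the 7 was called.

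Other targets of PXR and CAR did not move one way. Of 18 listed, 17 were tested, and in WT livers 2 were called higher and 3 lower, with a median log2 change of 0.04. Over all genes 3.43% were called higher and 1.95% lower in WT livers. The glutathione transferases Gsta1 and Gstm3 rose by 4.38 ± 0.53 and 2.55 ± 0.41, while the transporter Slco1a4, the carboxylesterase Ces2a and the sulfate donor synthase Papss2 fell by 1.88 ± 0.25, 1.58 ± 0.32 and 1.31 ± 0.28 on the log2 scale (edgeR, adjusted p of 0.01036 or less for each). Cyp2b10, the classical CAR target, gave -1.07 ± 0.89 and was not called. In dHSC livers Gstm3 was called higher, at 1.60 ± 0.40, and Ces2a lower, at -1.41 ± 0.32, against 1.71% and 0.843% of all genes. In dHep livers none was called, against 0.0674% of all genes. The genes called in WT livers had the same sign there: Gsta1 1.18 ± 0.47, Gstm3 1.10 ± 0.40, Slco1a4 -0.45 ± 0.24, Ces2a -0.68 ± 0.32 and Papss2 -0.34 ± 0.28.

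Some female-biased genes outside the family fell in WT livers, as Cyp3a16, Cyp3a41a and Cyp3a44 did. Of 24 listed, 22 were tested. In WT livers 8 were called lower and none higher, against 1.95% of all genes called lower, with a median log2 change of -1.44, and the other 14 did not pass. In dHSC livers 6 were called lower and none higher, against 0.843% of all genes called lower, with a median of -0.94. In dHep livers none was called, against 0.0674% of all genes, with a median of 0.02. The WT calls include the sulfotransferases Sult2a7, Sult3a1 and Sult3a2, the cytochromes Cyp2c69, Cyp2c40 and Cyp17a1, the proton pump subunit gene Atp6v0d2 and the flavin monooxygenase Fmo2. Many of these, such as Sult3a1 and Sult3a2, belong to families of close copies, so single counts are uncertain. Sult2a7 stood at 41.18, 89.73 and 14.55 CPM in dHep TCDD livers against 150.1, 85.46 and 214.0 CPM in dHep vehicle livers, and at 0.7321, 1.366 and 0.9089 CPM in WT TCDD livers against 66.79, 339.4 and 316.3 CPM in WT vehicle livers. For 7 of the 8 genes, all but Cyp2c40, the dHep response was also called different from the WT response by edgeR, against 0.856% of all genes, and the WT mice enter both calls. By edgeR no Cyp3a member was called for that difference, while DESeq2 called Cyp3a16 and Cyp3a41a. Male-biased genes moved both ways: of 16 tested, 2 were called higher and 3 lower in WT livers, with a median of -0.79. Over all genes 3.43% were called higher and 1.95% lower in WT livers. Of 11 genes of growth hormone and STAT5 signalling, 2 were called lower in WT livers, against 1.95% of all genes. They were the growth hormone receptor gene Ghr at -1.48 ± 0.27 and the STAT5 target Socs2 at -1.95 ± 0.49 (edgeR, adjusted p of 0.003961 and 0.02815). None was called in dHep or dHSC livers, against 0.0674% of all genes called in dHep and 0.843% called lower in dHSC livers. Without a call, Ghr gave -0.80 ± 0.27 in dHep and -0.84 ± 0.27 in dHSC livers, and Socs2 -0.29 ± 0.47 and -1.28 ± 0.48. The dHep minus WT difference of Ghr was 0.67 ± 0.38, not called (edgeR, adjusted p = 0.6975). Cux2, which is on the growth hormone list and on the female-biased one, gave -1.82 ± 0.74 in WT livers and was not called (edgeR, adjusted p = 0.2028).

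Of 7 tested AHR targets, 6 were called higher in WT and in dHSC livers and none in dHep livers, where the median log2 change was 1.76, against 3.34 in dHSC and 3.76 in WT livers. Of 8 acute phase genes, 5 were called higher and 1 lower in WT livers, 1 higher and 1 lower in dHSC livers and none in dHep livers. For these and the counts that follow, 3.43% of all genes were called higher and 1.95% lower in WT livers. In dHSC livers the shares were 1.71% and 0.843%, and in dHep livers 0.0674% were called in either direction. Markers of some leukocytes were called higher in WT and dHSC livers and none in dHep livers. The summed monocyte and macrophage level was nevertheless higher in every dHep TCDD liver than in any dHep vehicle liver. All 4 neutrophil markers were called higher in WT livers, and their summed level was 55.09 to 77.64 CPM in WT TCDD livers against 1.176 to 3.328 CPM in WT vehicle livers. In dHSC livers 3 of the 4 were called higher, at 8.448 to 116.6 CPM with TCDD against 1.448 to 4.358 CPM with vehicle, and in dHep livers none was, at 8.651 to 24.41 CPM with TCDD against 3.968 to 15.32 CPM with vehicle. Of 4 monocyte and macrophage markers, 2, Gpnmb and Itgax, were called higher in WT and in dHSC livers. Their summed level was 49.82 to 102.0 CPM in dHep TCDD livers against 9.656 to 29.53 CPM in dHep vehicle livers, 78.5 to 123.3 CPM in dHSC TCDD livers against 12.16 to 49.04 CPM in dHSC vehicle livers, and 73.94 to 235.8 CPM in WT TCDD livers against 9.636 to 35.86 CPM in WT vehicle livers. Both tested B cell markers, Cd79a and Cd79b, were called higher in WT and in dHSC livers. In WT livers 1 of 4 cholangiocyte markers, Epcam, was called higher, at 1.685 ± 0.448 (edgeR, adjusted p = 0.03704), and 1 of 3 tested endothelial markers, Lyve1, lower, at -2.72 ± 0.683 (edgeR, adjusted p = 0.0265). No marker of stellate cells, Kupffer cells or T and NK cells was called in any genotype. Of the 8 hepatocyte markers, 7 were tested and none was called in any genotype. Their summed level was 80020 to 111200 CPM in dHep TCDD livers against 74360 to 171100 CPM in dHep vehicle livers, 59370 to 94380 CPM in dHSC TCDD livers against 79510 to 104300 CPM in dHSC vehicle livers, and 48840 to 89620 CPM in WT TCDD livers against 87830 to 152900 CPM in WT vehicle livers. The median log2 change of these markers in WT livers was -0.73. Of the 5 markers of small intestine, another site of CYP3A, summed levels were 2.576 to 19.32 CPM over all libraries and Fabp2 had no count. The part of these markers in the Cyp3a changes was not tested.

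For each member the 3 genes outside the family with the smallest root mean square difference of centred log2 CPM over the 18 libraries were taken from 11573 protein-coding genes. Cyp3a16 was nearest to Sult3a2, Sult2a7 and Irx1, at 2.12, 2.175 and 2.359 log2 units, beside an SD of its own log2 level of 3.604. Cyp3a41a was nearest to Dct, P2ry4 and Cyp2c69, at 1.439 to 1.772 (own SD 3.001), and Cyp3a44 to Ugt2b37, Grid1 and Cyp17a1, at 1.28 to 1.328 (own SD 1.962). The female-biased list, with 22 genes tested, holds 2 of the 3 nearest genes of Cyp3a16, 1 of Cyp3a41a and 1 of Cyp3a44. That list was chosen with earlier results of these data known, and nearness was taken over the same 18 libraries. The overlap is therefore a description and not a test. Cyp3a11 was nearest to Gstm4, Tpi1 and Igsf11, at 0.339 to 0.352 (own SD 0.693), Cyp3a13 to Apoh, Hmgn1 and Iah1, at 0.197 to 0.219 (own SD 0.704), and Cyp3a25 to Ttc39c, Hoga1 and Tmem183a, at 0.226 to 0.236 (own SD 0.37).

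Beyond Cyp3a41b and Cyp3a59, which were both called lower in WT livers, the other genes of the family add little. Cyp3a57 held 2 to 13 counts per group and was not tested. The pseudogene Cyp3a63-ps averaged 0.644 CPM in WT TCDD livers and 1.90 CPM in WT vehicle livers, a log2 change of -1.54 ± 1.07 that was not called (edgeR, adjusted p = 0.5649), and Cyp3a61-ps1 was not tested.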

How the data were processed

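Whole-liver mRNA of 18 mice was sequenced. Per the labels' protocols, NEBNext Ultra libraries were made from poly-T selected RNA (10 mg of tissue, integrity number over 6.8). The deposited files hold the authors' raw counts of reads per Ensembl gene, 1 file per mouse. Per the submitters' processing notes reads were handled with HISAT2 2.1.0, HTSeq 0.11.3, FastQC 0.11.9 and DESeq2 1.22.2, with genome build GRCm38; the counting settings are not given in the sources used here. Reads that match several Cyp3a copies may therefore be lost or divided. Gene names and positions come from GENCODE M21, which names 55450 of the identifiers.

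Counts were tested in edgeR 4.0.16 (R 4.3.3): filterByExpr, TMM scaling, 1 quasi-likelihood fit of all 18 libraries with a mean per group, 8 comparisons and Benjamini-Hochberg adjustment over 14835 genes. The biological coefficient of variation was 0.448. p-values set a change against the spread between mice within groups. That spread was estimated over all 6 groups of 3 mice together and drawn towards that of other genes. Levels are CPM after TMM. The fit was tested on simulated counts with known changes in the WT TCDD group. Those counts were drawn with the fit's own estimates of spread and held no libraries that stand apart. They therefore say nothing on how those 5 libraries affect the dHep and dHSC comparisons. Coding sequences and promoters were aligned with Biopython 1.88. Alternatives were RLE scaling, no filter, a fit of only the groups compared, DESeq2 1.42.0, each library left out, 5 libraries left out, and summed copies; the sums of Cyp3a41a with Cyp3a41b, and of both with Cyp3a16 and Cyp3a44, were added after seeing the data. The 6 members, the 19 gene and marker lists and the rule for named genes (all members, other Cyp3a genes, Ahr, Cyp1a1, list members as examples, and the 3 most alike genes per member) were chosen with earlier results of these data known. Of 155 list genes, 137 were tested. Exact 95% intervals cover counting error only.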

Additional observations from a re-analysis of the deposited data

Results flagged for a closer look

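Several genes named beside the Cyp3a members differed in their TCDD response between genotypes, each by edgeR's test of the difference between the 2 log2 changes. By that test no Cyp3a member did, while DESeq2 called Cyp3a16 and Cyp3a41a for dHep minus WT and Cyp3a16 for dHep minus dHSC, and edgeR without the filter on low counts called Cyp3a16 for dHep minus WT. The response of Cyp1a1 was smaller in dHep livers, by -6.44 log2 units against WT and by -6.33 against dHSC. The response of Gsta1 was smaller in dHep livers than in WT livers, with a difference of -3.20. For dHSC minus WT its difference was -2.84, not called (edgeR, adjusted p = 1.0, unadjusted p = 0.000614), and for dHep minus dHSC it was -0.35. The other differences lie among the female-biased genes that fell in WT livers and less, or not, in dHep livers. For Sult2a7 the difference was 6.28 against WT and 6.16 against dHSC. Against WT it was 7.56 for Sult3a1, 8.78 for Sult3a2, 5.38 for Cyp2c69, 3.26 for Atp6v0d2, 2.33 for Cyp17a1 and 2.28 for Fmo2. Sult3a2 held 1 count in all over the 3 WT TCDD libraries, so the size of its fitted change depends on the prior count. Groups of 3 mice are too small for a test of single outlying values, and none was made.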

How the results depend on the processing

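With each library left out in turn, the number of members called with TCDD ranged from 0 to 3 in WT livers: 0 without TCDD mouse 2, 8 or 14, 1 (Cyp3a16) without vehicle mouse 13, 2 without vehicle mouse 7 and 3 without the muscle-bearing vehicle mouse 1. It was 0 in every such fit for dHSC livers and for the other 6 comparisons. RLE scaling, no filter on low counts, a fit of only the groups compared and DESeq2 each kept the count at 3 in WT livers, the 3 calls being the same members. In dHSC livers the count of 1 became 0 with only the groups compared and without the 5 libraries that stand apart, and 2 (Cyp3a16 and Cyp3a44) with DESeq2. For the dHep minus WT response, the count of 0 became 1 without the filter and 2 with DESeq2, and for dHep minus dHSC 1 with DESeq2; the cause was not tested. No called value changed sign. With summed copies the dHep TCDD change of Cyp3a16 became -0.52 and that of Cyp3a41a -0.67, -0.52 or, with Cyp3a41b alone, -0.20. Without the 5 libraries, Cyp3a44 became 0.26 in dHep TCDD livers, Cyp3a25 -0.13 for dHep minus WT, Cyp3a11 -0.67 and Cyp3a25 -0.29 for dHep minus dHSC, Cyp3a11 0.74 in dHep vehicle against WT vehicle livers and Cyp3a13 0.017 in dHSC vehicle against WT vehicle livers. In dHep vehicle against WT vehicle livers Cyp3a11 became 0.028 with RLE scaling or DESeq2 and 0.017 with only the groups compared. With each library left out, sign changes came for Cyp3a11 with TCDD (-0.46 to 0.50 in dHep, -0.86 to 0.061 in dHSC and -0.21 to 0.44 in WT livers), between responses (-0.53 to 0.46 for dHep minus WT, -0.90 to 0.017 for dHSC minus WT and -0.16 to 0.87 for dHep minus dHSC) and against WT vehicle livers (-0.60 to 0.39 for dHep and -0.75 to 0.074 for dHSC). They also came for Cyp3a16 with TCDD in dHep livers (-1.68 to 0.86). For dHSC minus WT they came for Cyp3a13 (-0.57 to 0.22), Cyp3a16 (-0.97 to 1.97) and Cyp3a25 (-0.23 to 0.29). For dHSC vehicle against WT vehicle they came for Cyp3a13 (-0.37 to 0.018), Cyp3a16 (-0.0085 to 1.04), Cyp3a25 (-0.087 to 0.44) and Cyp3a41a (-0.80 to 1.49). Cyp3a25 ran from -0.19 to 0.34 for dHep minus WT and from -0.17 to 0.21 for dHep minus dHSC, and Cyp3a44 from -0.047 to 1.73 for dHep minus dHSC. No paired analysis was possible because the groups share no mouse numbers and no label ties mice of different groups together. Depth limits Cyp3a16 most, since the WT TCDD libraries held 4 to 12 reads of it.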
